A study of Mus musculus with 12 samples.

Results

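The 4 RNA-seq libraries that carry replicate number 2, 1 from each treatment group, were compared with the 8 libraries of numbers 1 and 3 among the 12 libraries of the series. Members were chosen by the last digit of the sample title alone, and the treatment group was kept as a block, so that each number 2 library was set against the other libraries of its own group. All 12 libraries came from RAW 264.7 cells, a virus-transformed mouse macrophage line, cultured for 48 h with extracellular vesicles (EVs) at 3 µg of EV protein per ml. The EVs came from the mouse endothelial line MS-1 and had been loaded by electroporation. Those called ctrl-EVs carried a control mimic, and the remaining groups, each of 3 libraries like the controls, are named for the microRNA whose mimic their EVs carried: miR-222-3p-EVs, then miR-183-5p-EVs, then miR-142-5p-EVs. Every library, controls included, therefore carried EVs, and the design holds no macrophages without them. The labels do not say whether the libraries that share a number also share a culture, a day or a preparation. If they do, number 2 is a single occasion, so that the p-values below measure the spread between libraries and not between independent occasions of its kind. Number 2 was singled out after a principal component of these same data had set it apart, and the tests therefore describe its libraries.

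Macrophages are phagocytes that read their surroundings through Toll-like receptors, interferon receptors, nutrient sensors and stress sensors, and each of these feeds a known set of target genes. Protein misfolding in the endoplasmic reticulum (ER) raises ER chaperones through ATF6 and XBP1, whereas the kinase branch of the same response, together with lack of amino acids, raises amino acid transporters and synthesis enzymes through ATF4. Low oxygen acts through HIF-1, low sterol through SREBP2, and the circadian clock through E-box elements bound by CLOCK and BMAL1.

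The number 2 libraries held 16294611 to 18927524 estimated counts and the 8 others 18990222 to 22974853, without overlap (exact permutation test, two-sided p = 0.00404, the smallest that 4 against 8 libraries can give, and 0.00707 after Benjamini-Hochberg adjustment over 7 measures). The same p-values were obtained for 3 further measures. The 10 most counted genes took 7.73% to 8.70% of the counts in number 2 and 5.55% to 6.96% in the others. Mitochondrially encoded genes took 4.88% to 5.41% against 3.48% to 4.62%, and the counted transcripts were shorter on average, 1455 to 1472 nt against 1490 to 1596 nt. Per length, the 13 mitochondrially encoded mRNAs summed to 97499 to 108988 TPM (transcripts scaled by length to the same total in each library) in number 2, between number 3 (87520 to 94361 TPM) and number 1 (109572 to 113448 TPM). The share of counts was taken over all mitochondrially encoded genes, so that the 2 measures differ in genes as well as in scaling. The fragment length (201.8 to 207.5 nt against 198.0 to 211.3 nt) and the number of genes with at least 10 counts (12981 to 13165 against 12889 to 13392) overlapped. Within numbers 1 and 3, the ctrl-EVs library of number 3 had the lowest transcript length, 1490 nt. With each library's trend on transcript length removed, 8059 genes were called in the comparison below, and with all libraries thinned to 16195126 counts 7874, against 8046 without either step; beyond these steps, the part of the library measures in the results was not tested.

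**Figure D1:**
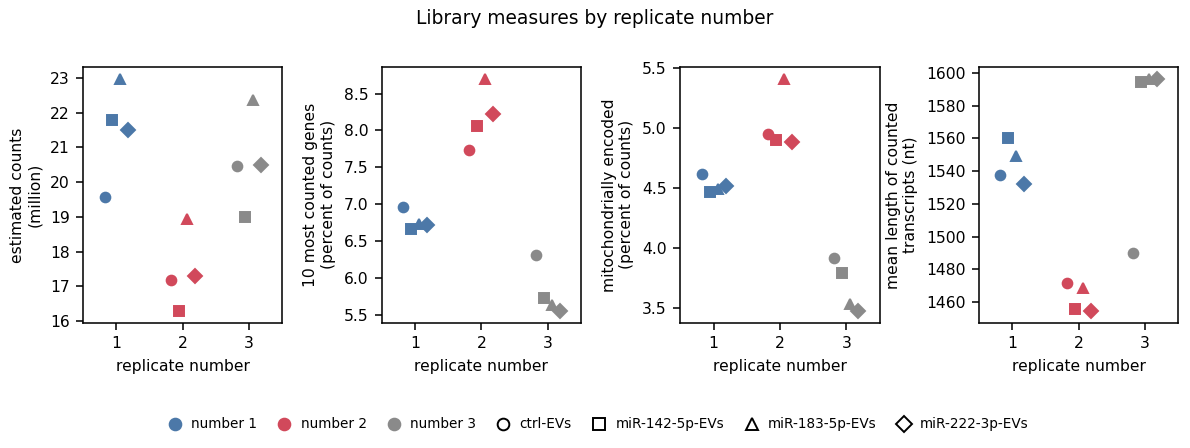
Estimated counts, share of the 10 most counted genes, share of mitochondrially encoded genes and mean transcript length (y axes, units on each) by replicate number (x axis); each point is 1 library, coloured by number and shaped by treatment group. Number 2 lies below numbers 1 and 3 in counts and transcript length and above both in the 2 shares; the y axes do not start at 0.

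The cells carried macrophage markers in every library. Of 10 macrophage markers, 9 passed the filter on low counts, and their summed level was 644 to 687 TPM in number 2 and 854 to 950 TPM in the others. Markers of other cells stayed low. The 8 endothelial markers summed to 5.14 to 6.10 TPM in number 2 and to 5.61 to 9.59 TPM elsewhere, with Cldn5 at 0 in all libraries, and 6 fibroblast markers summed to at most 1.01 TPM in any library, with Col3a1 at 0. The summed levels of T and B cell markers (at most 2.61 TPM), granulocyte markers (at most 2.18 TPM) and dendritic cell markers (at most 6.22 TPM) overlapped between number 2 and the others. Over longer marker lists, summed over the members that passed the filter, the sums of 3 cell types did not overlap. Of 18 endothelial genes, the 9 that passed summed to 18.8 to 20.7 TPM in number 2 and 29.4 to 37.8 TPM in the others. Of 12 T and B cell genes, the 5 that passed summed to 10.8 to 18.8 TPM against 19.7 to 28.5 TPM. Of 12 fibroblast genes only 3 passed, and their sum was higher in number 2, 11.9 to 16.7 TPM against 4.97 to 9.56 TPM. Among these 3, Thy1 was called at 1.09 on the log2 scale. Fn1, at a mean of 8.80 normalized counts, was called at 1.66. A gene this low can pass the filter through the number 2 libraries alone, so a higher filtered sum may follow from the filter. The 6 fibroblast markers, taken without the filter, summed to 0.29 to 0.36 TPM in number 2 and to 0.16 to 1.01 TPM in the others. The part of these markers in the results was not tested.

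Of 13906 genes tested, 8046 (57.9%) passed an adjusted p of 0.05 in DESeq2, 3913 (28.1%) higher and 4133 (29.7%) lower in number 2. The change was at least 1 on the log2 scale in 1157 genes that were higher (8.32%) and in 1219 that were lower (8.77%). For 2814 genes (20.2%) all 4 number 2 libraries lay above all 8 others, and for 2926 genes (21%) they lay below. The median size of the log2 fold change over all genes was 0.46, with a median change of -0.01. Called genes were thus common in both directions, and a list of genes stands out only where its share of calls lies well away from 28.1% and 29.7%. All samples are bulk RNA, so that fewer cells of a kind and less RNA per cell cannot be told apart.

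**Figure D2:**
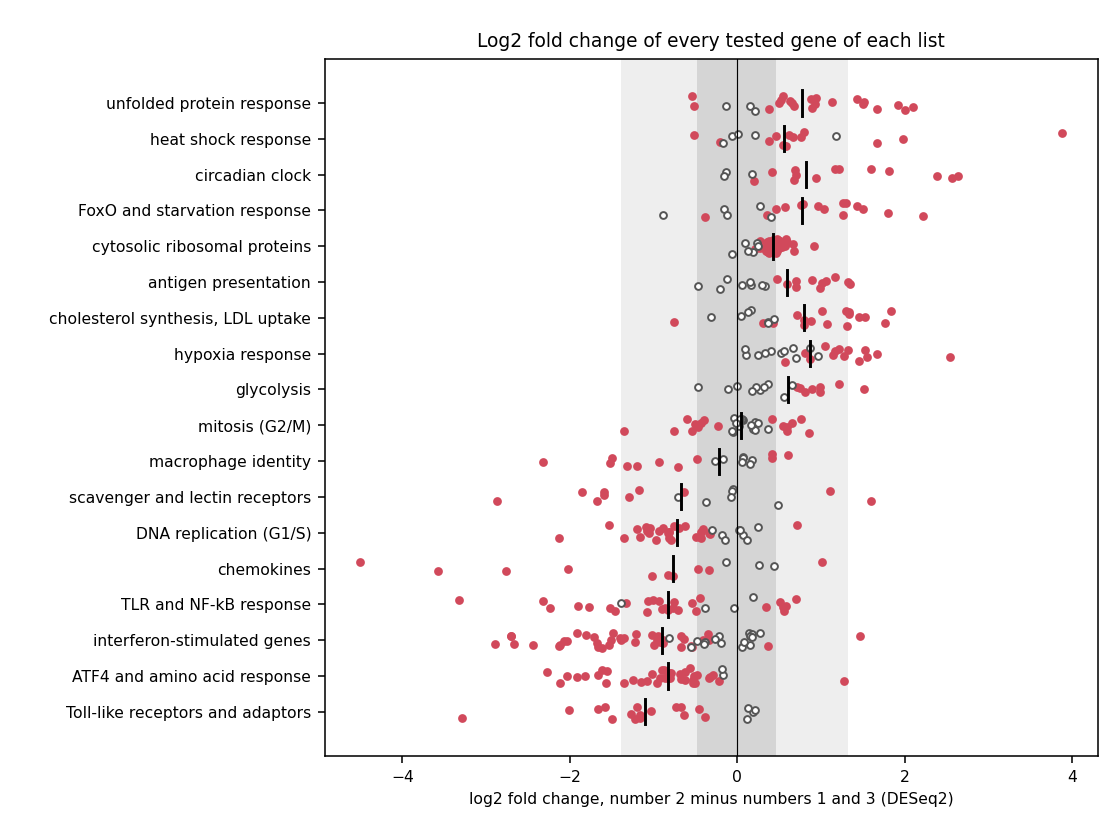
Log2 fold change of number 2 against numbers 1 and 3 (x axis) for every tested gene of 18 lists (y axis); filled points passed the adjusted p of 0.05, open points did not, and black bars mark list medians. The grey bands span percentiles 25 to 75 and 5 to 95 of all 13906 genes; the lists from the unfolded protein response to glycolysis have medians above 0 and those from scavenger receptors to Toll-like receptors have medians below 0.

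ER chaperones were higher in number 2 in every treatment group. Of 24 tested genes of the unfolded protein response, 19 rose (79.2%), 2 fell and 3 did not pass, with a median log2 fold change of 0.78. Values of number 2 are given throughout for ctrl-EVs first, miR-142-5p-EVs next, then miR-183-5p-EVs and last miR-222-3p-EVs. Hspa5, the ER Hsp70 chaperone BiP (chr2:34771970-34777547, GRCm38), had 53813, 60598, 77276 and 70977 normalized counts in number 2 and 14980 to 17794 (median 15948) in the 8 others. This gave a 4-fold rise (SE of the log2 fold change 0.10, DESeq2 adjusted p = 7.3e-85), and the groups did not overlap. Hsp90b1, the ER Hsp90 chaperone, had 54013, 58066, 78729 and 70978 against 12387 to 19123 (median 13810), a log2 fold change of 2.10 ± 0.15 (SE). Calr, the glycoprotein chaperone calreticulin, had 23041, 26304, 33016 and 30245 against 6654 to 8157 (median 7557), a change of 1.91 ± 0.11. In each of the 3 genes the miR-183-5p-EVs library was the highest and the ctrl-EVs library the lowest of number 2. Ern1, the sensor that splices Xbp1, was among the 2 that fell, with 2802, 2719, 1830 and 2597 against 2926 to 4283 (median 3342) normalized counts (-0.52 ± 0.16), and without the miR-183-5p-EVs library of number 2 its adjusted p rose to 0.061. Selenos, a selenoprotein of ER-associated degradation, was the other (-0.54 ± 0.11). The chaperone transcripts summed with the rest of the list to 7730 to 9448 TPM in number 2, 3585 to 4016 TPM in number 1 and 3406 to 3767 TPM in number 3.

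The promoter of Hsp90b1 is printed because it holds the element through which ATF6 is known to act. The ER stress element was searched as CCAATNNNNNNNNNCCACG on both strands from 250 bases before to 50 after each RefSeq start (GRCm38.p6), and capitals mark the matches (chr10:86705395-86705694, minus strand, written 5′ to 3′):
Hsp90b1: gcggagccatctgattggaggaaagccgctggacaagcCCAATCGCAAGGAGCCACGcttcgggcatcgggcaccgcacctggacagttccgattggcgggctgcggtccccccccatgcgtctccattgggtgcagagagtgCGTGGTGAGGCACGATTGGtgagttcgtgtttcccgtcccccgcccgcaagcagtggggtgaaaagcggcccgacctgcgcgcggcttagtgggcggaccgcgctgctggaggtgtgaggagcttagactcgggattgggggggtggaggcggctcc
It occurred in 8 of the 20 tested list members with a promoter sequence and in 0.135% of the 10353 tested genes that have one.

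Cytosolic chaperones were also higher, less evenly. Of 18 tested heat shock genes, 11 rose (61.1%) and 2 fell, with a median of 0.56. Their summed level was 4357 to 6175 TPM in number 2. It overlapped with number 1 (4573 to 5106 TPM) and lay above number 3 (3906 to 4083 TPM). Hspa1b, the inducible cytosolic Hsp70, had 149.6, 379, 417 and 322 normalized counts against 7.45 to 41.1 (median 23.5), a log2 fold change of 3.88 ± 0.38 (DESeq2 adjusted p = 1.6e-22). The value is uncertain, because a near-identical copy exists that did not pass the filter. Hsph1, a nucleotide exchange factor for Hsp70, had 7270, 10382, 12902 and 10090 against 1596 to 3583 (median 2493) (1.98 ± 0.33), and Hspa4l of the same family changed by 1.66 ± 0.41. Number 1 lay above number 3 for both, by 0.97 ± 0.12 and 1.27 ± 0.09 on the log2 scale, with number 2 above both. Ahsa1, the activator of the Hsp90 ATPase, fell by 0.52 on the log2 scale, from 1473 to 2090 (median 1789) to 1261, 1246, 1310 and 1141 normalized counts.

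Clock genes rose as well. Of 16 tested genes, 13 rose (81.2%), none fell, and the median change was 0.82 on the log2 scale. Per1, a repressor in the clock's negative limb, had 4611, 6775, 7378 and 7336 normalized counts against 835 to 1309 (median 1025), a change of 2.64 ± 0.15 (DESeq2 adjusted p = 2.3e-65). Bhlhe41, another repressor of E-box transcription, had 1252, 1623, 1372 and 1569 against 168 to 393 (median 225) (2.57 ± 0.21, and 1.83 without the correction for transcript length). Nr1d1, the nuclear receptor REV-ERB alpha, had 737, 968, 1363 and 1246 against 152 to 267 (median 214) (2.39 ± 0.21). The 4 number 2 libraries lay above all others for each of the 3 genes. Nr1d1 overlaps Thra on the opposite strand, which changed by 1.25 ± 0.18, and whether counting used strand is not given in the sources used here. Arntl, which encodes BMAL1, is the positive partner in the loop, and it did not pass (-0.14).

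A Per1 promoter is shown for the E-box, CACGTG, which is its own reverse complement (chr11:69098699-69098998, plus strand, GRCm38.p6, 1 of 2 promoters listed for the gene, E-box in capitals):
Per1: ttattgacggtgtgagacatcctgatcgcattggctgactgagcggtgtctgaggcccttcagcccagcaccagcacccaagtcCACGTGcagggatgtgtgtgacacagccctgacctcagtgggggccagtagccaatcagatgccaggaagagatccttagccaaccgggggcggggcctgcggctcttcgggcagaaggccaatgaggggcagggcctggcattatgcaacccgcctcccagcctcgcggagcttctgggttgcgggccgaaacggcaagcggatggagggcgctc
An E-box was found in 5 of 13 clock list members with a promoter sequence and in 11.3% of all tested genes with one.

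Genes known from FoxO activity and serum or nutrient withdrawal moved in the same direction. Of 20 tested, 14 rose (70.0%) and 1 fell (median 0.77). Txnip, a thioredoxin-binding protein that limits glucose uptake, had 77672, 86438, 111669 and 98397 normalized counts against 25259 to 28802 (median 26557), a change of 1.80 ± 0.10 (DESeq2 adjusted p = 5.5e-67). Its 8 other libraries were close together, and number 1 minus number 3 was -0.05 ± 0.10, which did not pass. Bcl6, a transcriptional repressor, had 2692, 3276, 4126 and 3416 against 413 to 1165 (median 709.7) (2.21 ± 0.38), and Ccng2, a cyclin expressed in quiescent cells, changed by 1.50 ± 0.32. For these 2 genes number 1 lay between the others, above number 3 by 1.14 ± 0.13 and 0.94 ± 0.12.

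**Figure D3:**
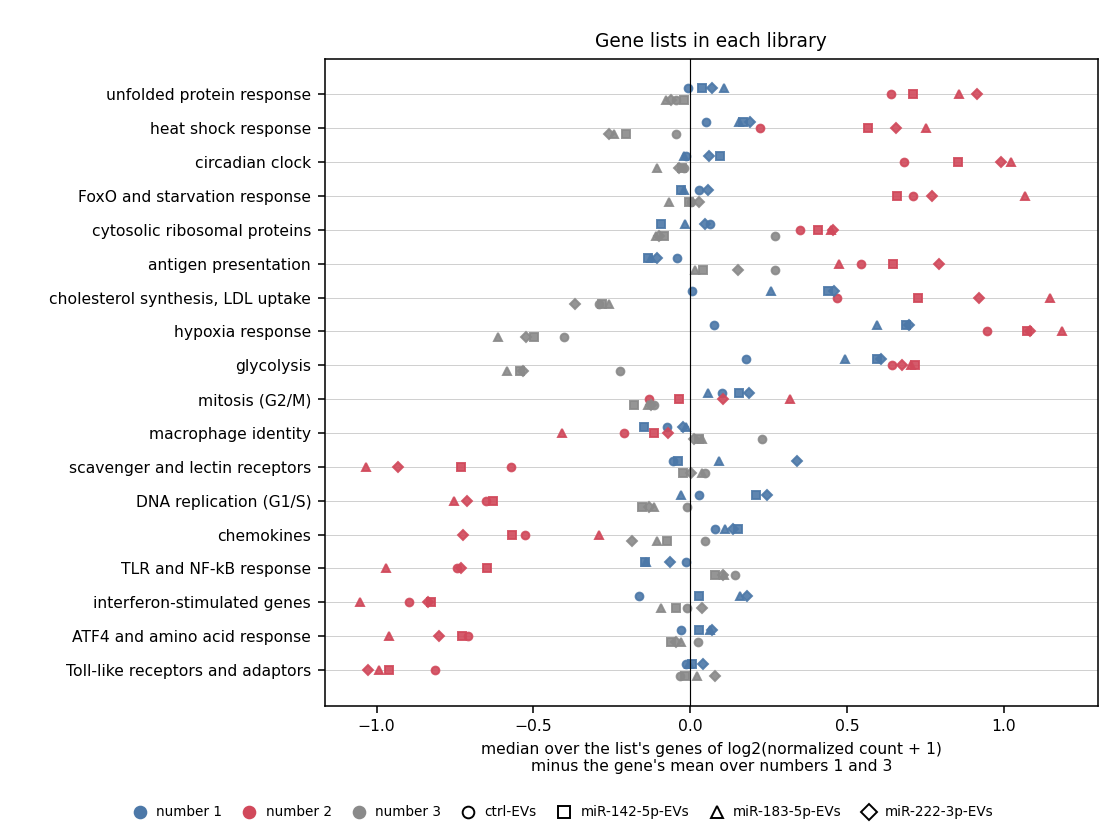
Median deviation of each list's genes (x axis, log2 of normalized count plus 1, minus each gene's mean over numbers 1 and 3) in each library for 18 lists (y axis); colour gives the replicate number and shape the treatment group. The 4 number 2 libraries stand apart for most lists, while for hypoxia response and glycolysis number 1 lies between number 2 and number 3.

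For hypoxia, glycolysis and sterol genes number 1 was not level with number 3, as was also the case for the heat shock list (median 0.29, 9 of 18 higher in number 1). Of 25 hypoxia genes, 14 rose in number 2 (56%) and none fell, with a median of 0.87. The median was 0.54 for number 2 minus number 1, 1.53 for number 2 minus number 3 and 1.03 for number 1 minus number 3, where 21 of 25 passed as higher against a background of 12.9% of all genes. Adm, the vasodilator peptide adrenomedullin, had 2060, 3293, 2741 and 3343 normalized counts in number 2, 489.7 to 1172 in number 1 and 79.4 to 107 in number 3. The 3 numbers did not overlap. Its change in number 2 was 2.54 ± 0.87 (DESeq2 adjusted p = 0.0073), and without the ctrl-EVs group its adjusted p was 0.0517. Pfkfb3, which makes the activator of phosphofructokinase, had 5167, 7308, 8663 and 7904 against 1486 to 3536 (median 1924) (1.67 ± 0.32). Ndrg1, a stress-induced gene with a HIF-bound promoter, had 15505, 17604, 16927 and 17653 against 3478 to 8909 (median 4735) (1.55 ± 0.35).

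Glycolytic enzymes rose in 8 of 18 tested genes (44.4%) and none fell. On leaving out single libraries 4 to 11 rose, with 4 without the ctrl-EVs library of number 2. Number 2 minus number 1 had a median of only 0.13, against 1.13 for number 2 minus number 3. Against number 1 alone 8 passed as higher and 3 as lower. The summed level of number 2, 17326 to 18089 TPM, lay within that of number 1, 14124 to 19296 TPM. All 18 were higher in number 1 than in number 3, with a median of 0.91. Gpi1, glucose-6-phosphate isomerase, had 37973, 42873, 45820 and 44376 normalized counts against 10147 to 22496 (median 13017) (1.52 ± 0.22). Eno2, an enolase that is not in the list but was among the 15 largest rises given below, had 10469, 13770, 13272 and 15707 against 1263 to 3816 (median 1700) (2.59 ± 0.39). Both were above all 8 other libraries. Pgam1, phosphoglycerate mutase, and Pfkm, a phosphofructokinase, changed by 1.21 ± 0.18 and 0.99 ± 0.15.

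Cholesterol synthesis genes rose in 16 of 24 tested genes (66.7%), with 1 fall and a median of 0.80. Hmgcs1, the synthase ahead of the rate-limiting reductase, had 4598, 5076, 9750 and 6640 normalized counts against 1463 to 2241 (median 1772) (1.76 ± 0.18, DESeq2 adjusted p = 1e-21). Insig1, which holds SREBP in the ER and is itself its target, had 7096, 8043, 16150 and 10667 against 1888 to 4049 (median 2564) (1.83 ± 0.34). In both the miR-183-5p-EVs library of number 2 was the highest of all. Fdft1, squalene synthase, changed by 1.52 ± 0.20, and Mvk, mevalonate kinase, was the member that fell, with 198, 178, 165 and 178 against 221.9 to 409 (median 290.4) (-0.76 ± 0.18). Of the LXR and cholesterol efflux list, 14 genes were tested, of which 3 rose (21.4%) and 6 fell (42.9%), with a median of -0.05. On leaving out single libraries 1 to 4 of them rose, with 1 without the ctrl-EVs library of number 2. Abca1, a lipid exporter, had 963, 766, 772 and 703 against 1531 to 2064 (median 1835) (-1.18 ± 0.13), and Abcg1 had 2688, 2219, 2324 and 2218 against 4128 to 5158 (median 4334) (-0.93 ± 0.09). Nr1h3, the sterol receptor LXR alpha, had 6.11, 16.2, 1.39 and 3.33 against 30.6 to 75.7 (median 57.3) (-3.34 ± 0.48, and -2.45 without the length offset). Its lowest values in number 2 lie near the floor of 3 counts, so the size of this fall is uncertain. Of 19 fatty acid synthesis genes 8 rose and none fell (median 0.26). On leaving out single libraries 4 to 11 rose, with 4 without the miR-183-5p-EVs library of number 2.

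Promoters of Pfkfb3 and Hmgcs1 stand for the hypoxia and sterol lists. The HIF core ACGTG (capitals; also part of the E-box CACGTG) was searched on both strands, as was the sterol element TCACNCCAC (chr2:11553880-11554179, minus strand, 1 of 2 promoters listed, and chr13:119690101-119690400, plus strand, GRCm38.p6):
Pfkfb3: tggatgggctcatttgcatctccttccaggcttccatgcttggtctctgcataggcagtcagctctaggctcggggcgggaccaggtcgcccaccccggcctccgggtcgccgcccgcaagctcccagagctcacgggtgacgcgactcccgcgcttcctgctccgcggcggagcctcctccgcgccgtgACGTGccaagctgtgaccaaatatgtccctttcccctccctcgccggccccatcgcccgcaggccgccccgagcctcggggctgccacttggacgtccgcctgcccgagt
Hmgcs1: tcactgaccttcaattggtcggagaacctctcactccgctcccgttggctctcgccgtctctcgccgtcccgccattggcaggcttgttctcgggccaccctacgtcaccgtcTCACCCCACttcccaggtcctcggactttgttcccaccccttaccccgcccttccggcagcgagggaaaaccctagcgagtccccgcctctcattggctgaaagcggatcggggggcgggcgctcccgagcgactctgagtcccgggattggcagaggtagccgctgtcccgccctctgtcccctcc
ACGTG was found in 16 of 20 hypoxia members with a promoter sequence and in 28.3% of all tested genes with one. The sterol element in this spelling was found in 1 of 17 members, against 1.38%.

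Genes that respond to ATF4 and to amino acid supply fell almost without exception. Of 40 tested, 37 fell (92.5%, against 29.7% of all genes), 1 rose and 2 did not pass, with a median of -0.82. For 35 of them the 4 number 2 libraries lay below all 8 others, against 21% of all genes. Cth, cystathionine gamma-lyase of cysteine synthesis, had 221.8, 235, 158 and 227 normalized counts against 904 to 1110 (median 1018) (-2.28 ± 0.12, DESeq2 adjusted p = 6e-81). Slc7a11, the cystine transporter, had 208, 243, 228 and 220.5 against 516 to 1439 (median 895) (-2.12 ± 0.24). Trib3, a pseudokinase induced by ATF4, had 2046, 1577, 688 and 1088 against 3990 to 6449 (median 5140) (-2.03 ± 0.21). The 3 genes did not overlap between number 2 and the others, and the miR-183-5p-EVs library was the lowest of all 12 for Cth and Trib3. Ddit4, the mTORC1 inhibitor REDD1, which HIF-1 and glucocorticoids also induce, was the exception, with 3105, 4433, 4579 and 4647 against 878 to 3088 (median 1428) (1.27 ± 0.42). For Ddit4 number 1 exceeded number 3 by 1.31 ± 0.15. The list as a whole was level between numbers 1 and 3, with a median of 0.05. The summed level was 3420 to 4092 TPM in number 2, 6783 to 7146 TPM in number 1 and 6738 to 7118 TPM in number 3.

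The Slc7a11 promoter is shown for the C/EBP-ATF element TGATGNAA, in capitals on both strands (chr3:50443564-50443863, minus strand, GRCm38.p6):
Slc7a11: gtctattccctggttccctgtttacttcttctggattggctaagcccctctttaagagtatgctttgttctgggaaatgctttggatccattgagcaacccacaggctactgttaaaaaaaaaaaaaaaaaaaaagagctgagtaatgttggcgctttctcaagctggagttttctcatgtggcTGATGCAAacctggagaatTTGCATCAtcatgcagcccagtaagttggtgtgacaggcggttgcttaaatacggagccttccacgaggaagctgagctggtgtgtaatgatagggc
The element was found in 12 of 31 list members with a promoter sequence and in 3.17% of all tested genes with one. Such counts describe letters in a window and not binding.

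Toll-like receptors and their adaptors were lower in number 2. Of 20 tested genes, 16 fell (80.0%), none rose, and the median of -1.10 became -0.75 against number 3 alone. Tlr7, the sensor of single-stranded RNA, had 659, 342, 329 and 399 normalized counts against 1410 to 2256 (median 1659) (-2.01 ± 0.17, DESeq2 adjusted p = 1.5e-30). Tlr3, the sensor of double-stranded RNA, had 39.1, 37.1, 32.4 and 63.1 against 97 to 220.0 (median 122.6) (-1.66 ± 0.20). Tlr5, the flagellin receptor, was low throughout, with 10.9, 1.2, 3.87 and 4.6 against 18.8 to 90.6 (median 34.9) (-3.28 ± 0.61). Most of its number 2 values lie near the floor of 3 counts, so the size of this fall is uncertain. None of the 3 genes overlapped between number 2 and the rest.

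Target genes of these receptors moved likewise, though not all of them. Among 31 tested genes of the TLR and NF-kB response, 21 fell (67.7%), 6 rose and 4 did not pass, with a median of -0.83. Gpr84, a receptor for medium-chain fatty acids, had 59.6, 55.5, 24.2 and 44.8 normalized counts against 292 to 698 (median 434) (-3.32 ± 0.27). Acod1, which makes itaconate, had 64.3, 61.7, 26.5 and 37.5 against 129.9 to 401 (median 180.0) (-2.32 ± 0.36), and Il1rn, the IL-1 receptor antagonist, had 35.5, 54.1, 48.5 and 23.2 against 156 to 217 (median 182) (-2.24 ± 0.21). Among the 6 rises, Nfkbia, the inhibitor I kappa B alpha, had 2237, 3123, 2289 and 2808 against 1184 to 2200 (median 1576) (0.70 ± 0.16). Rel, an NF-kB subunit, changed by 0.55 ± 0.12, and Nfkbiz, a nuclear I kappa B, by 0.58 ± 0.20, both with overlapping libraries. The cytokine gene Tnf also rose, by 0.51 ± 0.10, as did Cd83 by 0.54 and Tnfaip3 by 0.34. The other NF-kB subunits of the list fell, Nfkb1 by 0.90, Nfkb2 by 0.76 and Relb by 0.87 on the log2 scale, as did the I kappa B gene Nfkbie, by 1.52. The adjusted p of Nfkbiz was 0.0681 without the miR-142-5p-EVs library of number 2 and 0.0515 without the miR-183-5p-EVs library of number 2.

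Of 13 tested chemokine genes 9 fell (69.2%) and 1 rose, with a median of -0.76. Ccl2, which recruits monocytes (chr11:82035571-82037453), had 19, 20.1, 5.87 and 8.63 normalized counts against 78.1 to 259 (median 144) (-3.57 ± 0.41, DESeq2 adjusted p = 9.8e-17). Cxcl2, which recruits neutrophils, had 203, 199.7, 65.5 and 135 against 683 to 1303 (median 983) (-2.76 ± 0.25). Ccl7, another monocyte chemokine, was near the floor of 3 counts in number 2, with 1.17, 0, 1.16 and 0, and had 6.89 to 24 (median 11.5) in the others, so that no fold is given. Ccl5 was the chemokine that rose, with 320.1, 366, 288 and 282 against 113 to 189.9 (median 161) (1.02 ± 0.18).

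Interferon-stimulated genes fell in 38 of 56 tested genes (67.9%), rose in 2 and had a median of -0.90. Samd9l, an antiviral gene that restrains translation, had 174, 138, 98.6 and 132 normalized counts against 798 to 1143 (median 1012) (-2.89 ± 0.16, DESeq2 adjusted p = 3.9e-68). Rtp4, an interferon-induced transport protein, had 129, 139, 48.4 and 86.2 against 453 to 771 (median 634) (-2.70 ± 0.23), and Oas2, a synthase activated by double-stranded RNA, had 280.1, 301, 169.8 and 271 against 1088 to 2110 (median 1720) (-2.67 ± 0.21). The miR-183-5p-EVs library was the lowest for each of the 3. In contrast, Dhx58, a member of the RIG-I-like receptor family, had 2061, 2557, 2839 and 2635 against 666 to 1002 (median 936) (1.47 ± 0.09), and Stat2, which carries the interferon signal, changed by 0.37 ± 0.11 with overlapping libraries. The element TTTCNNTTTC was found in 24 of 44 members with a promoter sequence and in 3.96% of all tested genes with one. Samd9l, Rtp4 and Oas2 gave no promoter with it in this spelling and window, and no promoter is shown. The choice of a promoter to print did not take in Dhx58 and Stat2, which rose.

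**Figure D4:**
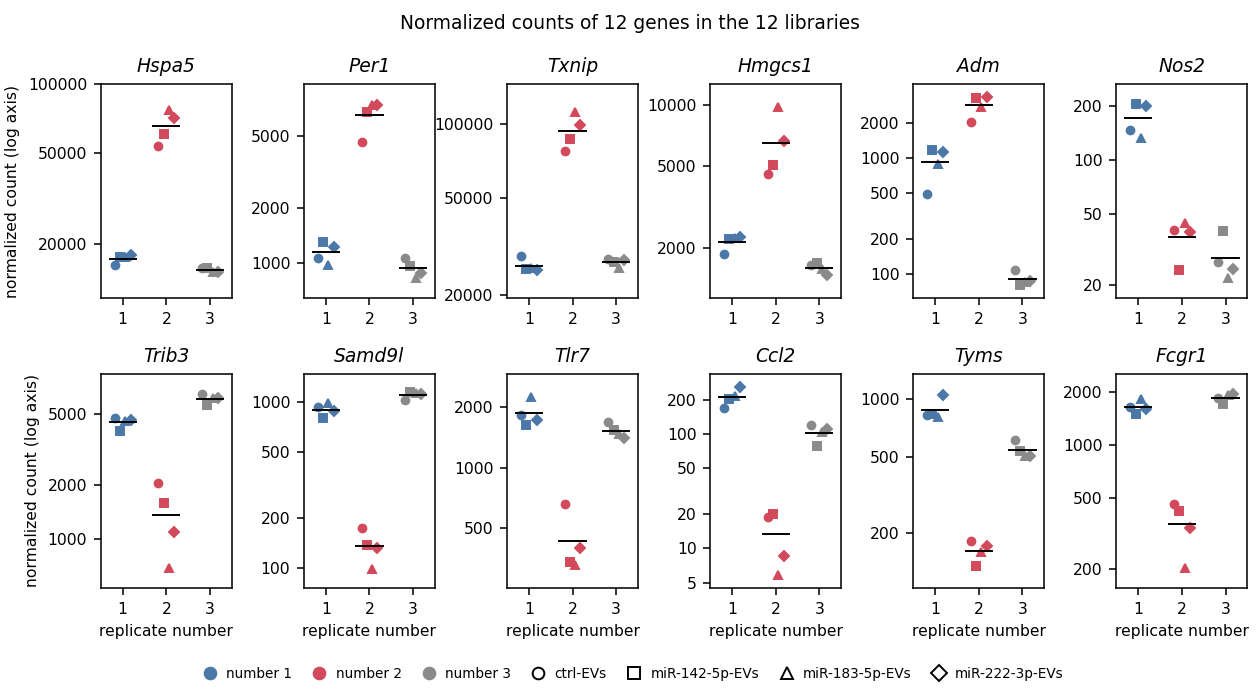
Normalized counts (y axes, log scale) of 12 genes in the 12 libraries by replicate number (x axis); points are libraries, shaped by treatment group, and black lines are means of the 4 libraries of a number. Hspa5, Per1, Txnip, Hmgcs1 and Adm are highest in number 2, the 6 genes of the lower row are lowest in number 2, and Nos2 is highest in number 1.

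Macrophage identity genes did not move as a block. Of 18 tested, 8 fell (44.4%) and 3 rose (16.7%), with a median of -0.22. Fcgr1, the high-affinity receptor for immunoglobulin G, had 466, 424, 202 and 339.8 normalized counts against 1508 to 1966 (median 1774) (-2.32 ± 0.18, DESeq2 adjusted p = 3e-37). Cd14, the lipopolysaccharide co-receptor, had 918, 723, 587 and 714 against 1782 to 2683 (median 1963) (-1.49 ± 0.13). Cd68, a glycoprotein of endosomes and lysosomes, had 5586, 6208, 7249 and 6835 against 4375 to 5549 (median 4751) (0.41 ± 0.10), and Ctss, cathepsin S, changed by 0.42 ± 0.09. Adgre1, the surface antigen F4/80, had 212, 215, 314 and 310.1 against 106 to 237 (median 166) and a change of 0.61 ± 0.27 (DESeq2 adjusted p = 0.043). The libraries overlapped, number 1 minus number 3 was 0.95 ± 0.17, and 14 of 27 alternatives gave an adjusted p above 0.05.

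Receptors for uptake fell more often than they rose. Among 16 scavenger and lectin receptors 8 fell (50%) and 2 rose (12.5%), against 29.7% and 28.1% of all genes (median -0.67). Among 7 subunits and regulators of the phagocyte oxidase 3 fell (42.9%) and 1 rose (14.3%). Without the miR-142-5p-EVs library of number 2 none of the 7 rose. Ncf4, a cytosolic subunit, had 886, 935, 714 and 844 normalized counts against 1635 to 2330 (median 1867) (-1.17 ± 0.11). Rac2, the GTPase of the complex, changed by 0.20 ± 0.08, a call that was lost in 7 of 27 alternatives. Antigen presentation, in contrast, rose in 11 of 19 tested genes (57.9%) and fell in none (median 0.59). H2-Eb1, a class II beta chain, had 380.4, 374, 351 and 499 against 122 to 210.3 (median 163) (1.33 ± 0.16), Cd74, the class II invariant chain, changed by 0.71 ± 0.14, and B2m, the class I light chain, by 0.70 ± 0.09. H2-Aa, a class II alpha chain, spread widely, with 162, 83.1, 41.9 and 116 against 7.52 to 78.4 (median 39.5) (1.17 ± 0.50, DESeq2 adjusted p = 0.034), and 10 of 27 alternatives gave an adjusted p above 0.05.

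Of the polarization markers of the study, 3 were tested, and 1 of them passed. All 3 were lower in number 2 than the mean of numbers 1 and 3 in each of the 4 treatment groups. Il1b, a cytokine of classically activated macrophages, had 33.8, 18.5, 12.5 and 30.2 normalized counts in number 2 and 27.6 to 49.5 (median 43.6) in the others (-0.83 ± 0.31, DESeq2 adjusted p = 0.015), and without the miR-183-5p-EVs library of number 2 the adjusted p was 0.134. Nos2, inducible nitric oxide synthase, had 40.5, 24.1, 44.1 and 39.6 in number 2, 133 to 204 in number 1 and 21.8 to 40.0 in number 3. Within treatment groups, number 2 exceeded number 3 in ctrl-EVs (40.5 against 26.8), miR-183-5p-EVs (44.1 against 21.8) and miR-222-3p-EVs (39.6 against 24.7). Number 2 lay below number 3 in miR-142-5p-EVs (24.1 against 40.0). The change of Nos2 in number 2 was -1.39 ± 0.77 and did not pass (DESeq2 adjusted p = 0.11). Number 2 minus number 3 was 0.43 ± 0.30 (DESeq2 adjusted p = 0.2), whereas number 1 exceeded number 3 by 2.61 ± 0.27 on the log2 scale (DESeq2 adjusted p = 4.8e-19). Tgfb1 had 585, 760.1, 677 and 741 against 744 to 877 (median 796) (-0.22 ± 0.10, DESeq2 adjusted p = 0.062). Arg1, the arginase of alternatively activated macrophages, had 4 to 10 estimated counts in number 2 and 0 to 8 in the others and did not pass the filter. Of the study's in vitro M1 genes, which it traces to activated peripheral blood mononuclear cells, 490 were tested. Among them 124 rose (25.3%) and 204 fell (41.6%). Of its M2 genes 285 were tested, of which 67 rose (23.5%) and 98 fell (34.4%). The medians were alike, -0.15 and -0.14. Among 15 genes of the IL-4 response 3 rose (20%) and 4 fell (26.7%), both below the 28.1% and 29.7% of all genes.

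Most genes of DNA replication fell in number 2, and mitotic genes moved in both directions. Of 36 tested replication genes 27 fell (75%) and 1 rose, with a median of -0.72. Of 30 mitotic genes 9 fell (30.0%) and 7 rose (23.3%), close to the shares of all genes, with a median of 0.05. On leaving out single libraries, 6 to 11 of the mitotic genes rose, with 11 without the ctrl-EVs library of number 2 and 6 without the miR-183-5p-EVs library of number 2. Tyms, thymidylate synthase, had 181, 134, 159.9 and 172 normalized counts against 505 to 1044 (median 709) (-2.13 ± 0.21, and -1.29 without the length offset; uncertain, since a near-identical copy exists). Cdc45, a part of the replicative helicase, had 354, 323, 259.6 and 237 against 661 to 919 (median 736) (-1.36 ± 0.13). Neither overlapped with the other libraries. Gins3, of the same helicase, rose, with 932, 1212, 1302 and 1129 against 526 to 882 (median 657) (0.72 ± 0.18). Among mitotic genes, Cenpa, the centromeric histone, changed by 0.85 ± 0.11, the kinase Aurkb by 0.76 ± 0.14 and the spindle motor Kif11 by -1.35 ± 0.11. Kif11 thus fell, from 1286 to 1680 (median 1477) to 594, 559.8, 632 and 563 normalized counts, while the former 2 rose.

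Growth arrest and immediate early genes were mixed. Of 22 tested p53 targets 12 rose (54.5%) and 4 fell (median 0.39). Zmat3, an RNA-binding p53 target, had 3863, 4098, 5626 and 4998 normalized counts against 1228 to 1624 (median 1403) (1.69 ± 0.12), and Trp53inp1, which promotes autophagy and cell death, changed by 1.30 ± 0.13. Trp53 itself fell, with 2045, 2116, 2346 and 2324 against 3001 to 3797 (median 3350) (-0.63 ± 0.09). Among 28 immediate early genes 12 rose (42.9%) and 5 fell (17.9%), against 28.1% and 29.7% of all genes (median 0.19). Fosb had 155, 233, 206 and 205 against 13.5 to 45.4 (median 30.6) (2.75 ± 0.28) and the orphan receptor Nr4a1 had 430.1, 375, 384 and 406 against 77.7 to 163 (median 111) (1.79 ± 0.17). Fos went the other way, with 178, 255, 167 and 229 against 322 to 529 (median 414) (-1.04 ± 0.16).

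Cytosolic ribosomal protein genes rose by a small and even amount, in 40 of 46 tested genes (87%), and none fell, with a median of 0.42. Rpl12 had 1503, 1852, 1998 and 2026 normalized counts against 853 to 1049 (median 989) (0.92 ± 0.10). Rpl24 changed by 0.67 ± 0.12 and Rpl3 by 0.68 ± 0.13, both uncertain, since they share sequence with near-identical copies. The ctrl-EVs library of number 3 was the highest of the 8 others for both. Summed levels were 113107 to 117228 TPM in number 2, 94539 to 103323 TPM in number 1 and 100013 to 114149 TPM in number 3, and so overlapped with number 3. Lists of mitochondrially encoded mRNAs (4 rose and 5 fell of 13), nuclear respiratory chain genes (9 and 10 of 41), NRF2 targets (7 and 8 of 27), lysosome genes (12 and 11 of 37), and MYC targets and ribosome biogenesis (6 and 10 of 29) had medians between -0.04 and 0.03. Leukocyte integrins (3 and 3 of 17), osteoclast genes (4 and 6 of 18), complement and coagulation genes (1 and 3 of 12), the TGF-beta response (4 and 2 of 18), SRF and YAP targets (2 and 5 of 13) and histones (2 and 2 of 9) gave no larger share of calls in either direction than SRF and YAP targets did, 38.5% lower. Of the marker lists of other cells, 9 endothelial genes passed the filter, of which 2 rose and 3 fell, and 3 fibroblast genes, of which 2 rose. On leaving out single libraries 0 to 3 endothelial genes rose and 2 to 4 fell, with 0 and 2 without the ctrl-EVs library of number 2. Among 5 T and B cell genes 1 fell and among 4 dendritic cell genes 2 rose, and both counts were 0 without the miR-183-5p-EVs library of number 2. Of 3 granulocyte genes none was called (0 to 2 rose on leaving out 1 library). Among the rises in these marker lists, Flt1, Plvap, Fn1 and Xcr1 had means of 7.81 to 11.2 normalized counts. Genes at such levels can pass the filter through number 2 alone.

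Of the 15 largest rises 4, and of the 15 largest falls 7, are members of the pathway lists. By rule, the 15 largest rises and falls were taken among protein-coding genes that were called, had a mean of at least 100 normalized counts, did not overlap and moved alike in all 4 groups. The last rise inside this limit was 2.50 and the next outside 2.48, and the falls stopped at -2.61, with -2.53 outside. These values chose the genes and are a description. Nupl1, which encodes a nucleoporin, had 282, 626, 884 and 926 normalized counts against 1.83 to 15.2 (median 9.26) (6.30 ± 0.33); it shares its strand and locus with Gm49336, which changed by 0.15 ± 0.09 at a mean of 2701 normalized counts, and the split of reads between them is uncertain. Car14, a membrane carbonic anhydrase, had 406, 488, 584 and 504 against 18.7 to 43.4 (median 23.9) (4.31 ± 0.22). Cdh23, a cadherin known from hair cells, had 246, 234, 374 and 369 against 8.58 to 40.7 (median 18.6) (3.91 ± 0.36, and 2.41 without the length offset), and Chrnb1, an acetylcholine receptor subunit, had 928, 941, 1376 and 1143 against 68.2 to 176 (median 101) (3.29 ± 0.25). C1qtnf1, a secreted C1q-like protein, the guanine nucleotide exchange factor Mcf2l and the ligand ephrin-A1 (Efna1) changed by 2.79 ± 0.45, 2.59 ± 0.24 and 2.56 ± 0.40. For these last 3 number 1 lay above number 3, by 1.37, 0.82 and 1.15.

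Among the largest falls, Lrrc14b had 9.35, 1.26, 4.61 and 1.21 normalized counts against 285 to 606 (median 486) (-6.79 ± 0.46). It is uncertain, since its sequence is contained in Ccdc127 on the opposite strand, which changed by -0.04 ± 0.07. Krcc1, a nuclear protein gene, had 255, 186, 75.6 and 131 against 1083 to 1591 (median 1415) (-3.17 ± 0.21). Arl11, an Arf-like GTPase of macrophages, had 77.7, 76.3, 64.4 and 67.7 against 464 to 662 (median 530.4) (-2.97 ± 0.16), with libraries close together within each side. Clec5a, a myeloid C-type lectin, had 172, 137, 94.4 and 138 against 784 to 1201 (median 984) (-2.87 ± 0.18), and Dhrs9, a retinol dehydrogenase, had 173, 118, 65.7 and 82.3 against 593 to 846 (median 757) (-2.80 ± 0.21). The Schlafen gene Slfn2, the inflammasome sensor Nlrp1b and Nxpe4 changed by -2.71 ± 0.25, -2.69 ± 0.21 and -2.61 ± 0.26. From the chemokine, TLR and interferon lists, Ccl2, Gpr84, Samd9l, Cxcl2, Rtp4 and Oas2 were also among these 15, and Clec5a belongs to the lectin list.

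Numbers 1 and 3 were not alike, but differed less from each other than number 2 did from either. Number 2 minus number 1 gave 8053 called genes (57.9%; 28% higher and 29.9% lower). Number 2 minus number 3 gave 8587 (61.8%; 30.7% higher and 31% lower), and number 1 minus number 3 gave 3253 (23.4%; 12.9% higher and 10.5% lower). With a change of at least 1 on the log2 scale these counts were 2245 (16.1%), 2692 (19.4%) and 440 (3.16%). The median sizes of the change were 0.45, 0.49 and 0.21. The first 2 comparisons share the number 2 libraries and are not independent of each other. Medians of the unfolded protein response were 0.69, 0.83 and 0.07 in this order, those of the clock 0.92, 0.97 and 0.08, and those of ATF4 genes -0.80, -0.84 and 0.05. Replication genes were higher in number 1 than in number 3 in 13 of 36 and lower in none (median 0.22). Mitotic genes were so in 16 of 30 and cholesterol synthesis genes in 19 of 24, where the median was 0.57. Antigen presentation genes were lower in number 1 than in number 3 in 6 of 19. For hypoxia and glycolysis, therefore, the contrast with numbers 1 and 3 together averages over a difference between them.

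**Figure D5:**
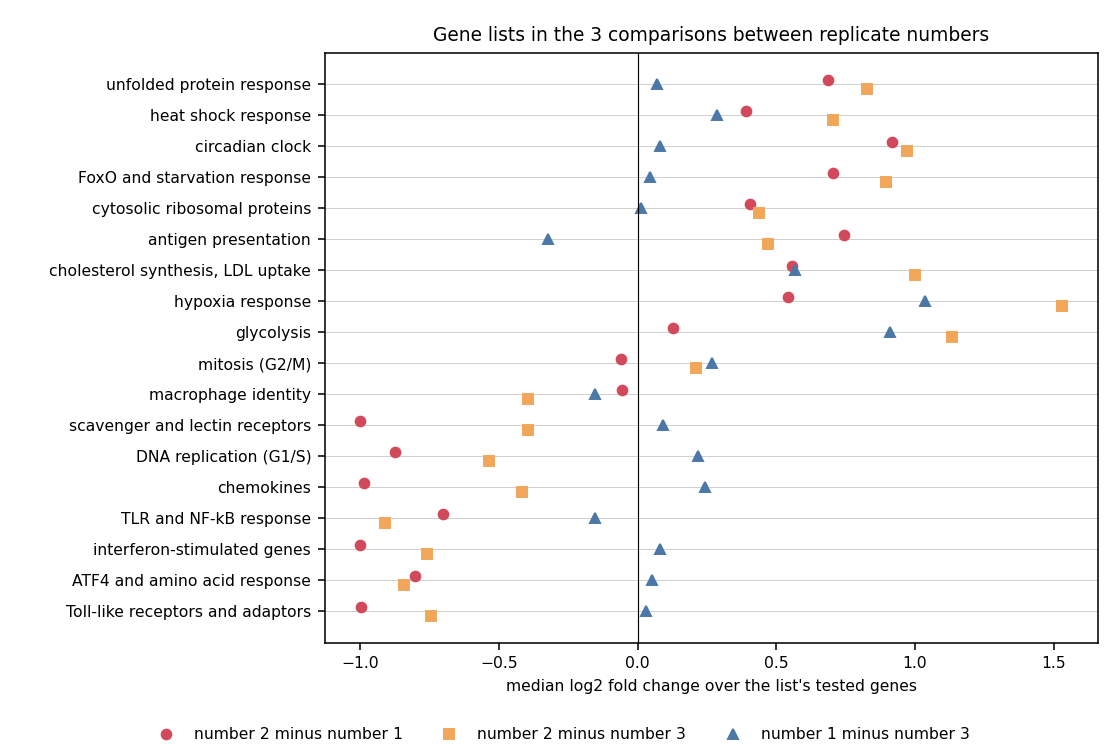
Median log2 fold change over the tested genes of 18 lists (y axis) for number 2 minus number 1 (circles), number 2 minus number 3 (squares) and number 1 minus number 3 (triangles) on the x axis. For the unfolded protein response the medians are 0.69, 0.83 and 0.07; for the hypoxia response they are 0.54, 1.53 and 1.03.

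The treatment groups showed the difference alike in direction, with the ctrl-EVs library often the least changed of number 2. Over the 8046 called genes, the median deviation from numbers 1 and 3, taken in the direction of the call, was 0.56 in the ctrl-EVs library of number 2, 0.62 in miR-142-5p-EVs, 0.79 in miR-183-5p-EVs and 0.72 in miR-222-3p-EVs on the log2 scale. These genes were called on the same libraries, and the values only order the libraries. Among 15 lists with a median change of at least 0.5 in size and at least 10 tested genes, the ctrl-EVs library lay nearest to numbers 1 and 3 in 9 and the miR-183-5p-EVs library farthest in 10. The interaction of number 2 with treatment was called for 8 genes (0.0575%; DESeq2 likelihood ratio test, 175 genes, 1.26%, with an unadjusted p under 0.05), of which 4 are pseudogenes. The quasi-likelihood test of edgeR called 0, with 336 genes at an unadjusted p under 0.05. With a single number 2 library in each group, this test rests on the spread between numbers 1 and 3 alone. None of the genes named in the sections on pathways was among the 8.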

How the data were processed

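RNA of 12 RAW 264.7 cultures was sequenced as poly(A) paired-end libraries, and the authors quantified transcripts with Salmon against Ensembl mouse transcripts. The deposited values are estimated counts (read numbers that need not be whole), TPM as the authors' tool scaled them, and transcript lengths. Of 118783 listed transcripts, 116622 matched the GENCODE M21 annotation (GRCm38), and 0.605% to 0.707% of counts were left unmatched. Estimated counts were summed to 35865 genes and rounded. The Ensembl release used in counting is not certain in the sources used here, which name more than 1.

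Genes that reached 10 counts in 3 or more libraries were tested in DESeq2 1.42.0 (R 4.3.3) with treatment group and number 2 as terms, mean transcript length as an offset, and Benjamini-Hochberg adjustment over all genes at 0.05. Normalized counts are counts over these size and length factors. A second fit with 3 numbers gave the pairwise comparisons, and a likelihood ratio test the interaction. edgeR 4.0.16 was an alternative, 1 of 27. Fits were checked on simulated counts. Totals of 16294611 to 22974853 counts set a floor of 3 counts at 0.131 to 0.184 CPM, which covers counting error only. Samples were grouped by title. The number 2 libraries and the 41 gene lists were chosen with earlier results of these data known; 1 list of noncoding RNAs had no tested member. Of a symbol with several gene IDs the most counted was kept.

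Genes were named by rule: the 15 largest rises and falls; per list, from the 3 largest called changes per direction and the 2 called members with most counts; and Arg1, Tgfb1, Nos2 and Il1b. Arntl, Thra, Gm49336, Ccdc127, Thy1, Nfkb1, Nfkb2, Relb, Nfkbie, Tnf and Tnfaip3 were added after their values were seen. Not every gene that the rule admits is named, and some are not reported here. Copies with at least 95% identity over at least 50% of a transcript are called near-identical. Besides Nr1d1 and Lrrc14b, a tested gene on the opposite strand overlaps Hsp90b1, Pfkm, Fdft1, Cdc45, B2m, Rpl12, Rpl3, Car14 and Cdh23. The limit stated for Nr1d1 applies to them as well. Promoters are from RefSeq.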

Additional observations from a re-analysis of the deposited data

Results flagged for a closer look

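A library was singled out where its gap to the nearest of its group exceeded Dixon's 95% limit. Of 234 groups of values examined, 8 held such a library, where chance gives about 5%. Within number 2, the miR-183-5p-EVs library had 5.41% of its counts on mitochondrially encoded genes (nearest 4.95%). The ctrl-EVs library of number 2 had 3105 normalized counts of Ddit4 (nearest 4433). Among the 8 others, the ctrl-EVs library of number 3 was high for Cd14 (2683, nearest 2191), Rpl3 (6877, nearest 5157) and Rpl24 (11147, nearest 9141). The ctrl-EVs library of number 1 was low for Dhx58 (666, nearest 889) and high for Car14 (43.4, nearest 26.0). The miR-222-3p-EVs library of number 1 was high for scavenger and lectin receptors, with a median deviation of 0.34 on the log2 scale (nearest 0.09).

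The interaction of number 2 with treatment was called by DESeq2's likelihood ratio test for 8 genes, all with libraries of number 2 that overlap the others. The adjusted p-values from DESeq2 were 1.6e-20 for Gm10925, 9.02e-12 for Gm13502, 1.4e-10 for Galnt2, 5.8e-07 for Gm2436, 2.4e-05 for Gm45837, 2.8e-05 for Gm49378, 0.0297 for Tnxb and 0.042 for Gm48113. Galnt2, a glycosyltransferase gene, had 0 normalized counts in number 2 of miR-222-3p-EVs and of miR-183-5p-EVs, 28.1 in ctrl-EVs and 184 in miR-142-5p-EVs, against 80.5 to 197 in numbers 1 and 3. Of the 8 genes 4 are pseudogenes, and edgeR's quasi-likelihood test called 0 genes (lowest adjusted p = 0.194).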

How the results depend on the processing

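The count of 8046 called genes was 6552 to 8914 over 27 alternatives, with 47.0% to 50.1% of the calls higher, and the median change of all genes moved by less than 0.1 on the log2 scale under each scaling. Leaving out 1 library gave 6617 to 7883 genes. Same-numbered libraries could not be shown to be pairs, and the replicate block of 3 numbers beside the treatment gave 8914. The quasi-likelihood test of edgeR gave 7922 genes, 8199 and 8736 for number 2 against numbers 1 and 3, and 2965 for number 1 against number 3. For the interaction it gave 0 genes in place of 8; the cause was not tested. Nos2, which was not called, was 0.41 against number 3 alone; no other gene of the report with its own fold change under all alternatives changed direction. Calls of Adgre1, H2-Aa, Rac2, Il1b, Nfkbiz, Ern1 and Adm were lost in at least 1 alternative. Nos2 passed under the replicate block (-0.87, DESeq2 adjusted p = 0.0012) and against number 1 only (-2.19, DESeq2 adjusted p = 9e-13), and Tgfb1 passed in 5 alternatives, its change being -0.11 without the ctrl-EVs library of number 2. Of 68 counts of called list members, 17 moved by over 1.5 times when 1 library was left out, none of the 19 counts of at least 10; the ctrl-EVs or miR-183-5p-EVs library of number 2 gave most of the lowest values. Depth limits genes near 3 counts, such as Ccl7 and Arg1 and, in number 2, Nr1h3, Tlr5 and Lrrc14b.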
